A study of Arabidopsis thaliana with 9 samples.

Results

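The comparison was between 2 ways of disabling Polycomb Repressive Complex 2 (PRC2) in 12 day old Arabidopsis thaliana seedlings, the clf swn double mutant and the siFIE knock-down. It used the 3 arrays of clf swn and the 3 arrays of siFIE, 6 of the 9 arrays in the series, chosen by their titles, and covered 30361 genes. The 3 arrays of wildtype Col showed only the baseline level. The clf swn plants carried mutant alleles of CURLY LEAF (CLF) and SWINGER (SWN), written clf-7 swn-28 in the titles and swn-7 clf-28 in the growth notes. They were sterile and were picked by the labels' account from progeny of parents that were heterozygous for the clf allele. The siFIE plants were first generation (T1) transformants selected on kanamycin, in which an RNA interference transgene lowered the mRNA of FERTILIZATION INDEPENDENT ENDOSPERM (FIE), and only plants of intermediate phenotype were taken. All plants grew on MS agar in long days, and RNA of whole plants was taken from pools of 10 to 12 plants, 3 pools for each genotype with 1 array for each pool. The sources conflict on the ecotype of siFIE, which is C24 in the growth notes of the labels and Col in the study's methods, so whether the ecotype differed from that of the Col arrays is not settled. Selection on kanamycin and the incomplete loss of FIE went together with the siFIE genotype, and their parts in any difference cannot be told apart from it.

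PRC2 keeps genes silent by placing 3 methyl groups on lysine 27 of histone H3 (the mark H3K27me3). CLF, SWN and MEDEA (MEA) are alternative catalytic subunits of the plant complex, and CLF and SWN are the ones known to act after germination, whereas FIE is a single copy WD40 subunit that every complex contains. Plants that lack the complex are known to lose leaf identity and to form embryo-like tissue, with activation of flower, meristem and seed genes outside their normal place and time.

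The array is a NimbleGen design of 60 base probes with 2 or 3 probes for nearly every gene. Values below are RMA signals, that is, background corrected, normalised and summarised over the probes of a gene, on a linear scale. Differences are clf swn minus siFIE on the log2 scale, and a gene was called higher or lower in clf swn where the difference was more than 2-fold with an adjusted p under 0.05 in limma (Benjamini-Hochberg over all 30361 genes). Because background correction stretches the ratios of nearly silent genes, the log2 difference of the same probes without background correction, marked as uncorrected, is given beside the RMA difference of a gene where the ratio moved by more than 1.5 times or the call changed. Replicate arrays correlated at 0.991 or more within a genotype, and a clf swn and a siFIE array at 0.937 to 0.944.

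Both mutants were distinct in the genes that had been disabled. SWN had signals of 180, 392 and 118 on the clf swn arrays, against 11743, 11524 and 12247 on the siFIE arrays. The difference was -5.87 (SE 0.35, limma adjusted p = 1.4e-06), or -4.65 without background correction, and every probe was lower in clf swn. CLF had 3744, 4447 and 3852 on the clf swn arrays, against 11825, 11308 and 9857 on the siFIE arrays, a difference of -1.45 (limma adjusted p = 1.4e-05). CLF mRNA was therefore lowered in clf swn but was still well above the weakest signals of the array, while SWN mRNA was close to them. In siFIE both genes were near the level in Col, where SWN had 11186, 11516 and 11643 and CLF had 11774, 12348 and 10798.

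FIE had 3392, 3249 and 3349 in clf swn, against 244, 281 and 321 in siFIE, with Col in between at 1976, 1768 and 1786. The difference of 3.57 (SE 0.12, limma adjusted p = 4.4e-08) shrank to 1.32 without background correction. Its 3 probes did not move together. In the deposited probe intensities, the probe at position 357 had means of 4256 in clf swn and 458 in siFIE, and the probe at position 1204 had 3316 in clf swn and 623 in siFIE. The probe at position 125 went the other way, with 480, 397 and 362 in clf swn, against 2462, 1866 and 1709 in siFIE and 318, 439 and 331 in Col. The RMA value of FIE thus combined a low signal of 2 probes with a high signal of 1 in siFIE. The remaining catalytic subunit MEA, an imprinted gene of the seed, had 50.9, 92.5 and 35.4 in clf swn, against 155, 272 and 233 in siFIE, a difference of -1.96 that fell short of 2-fold without background correction (-0.66).

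**Figure D1:**
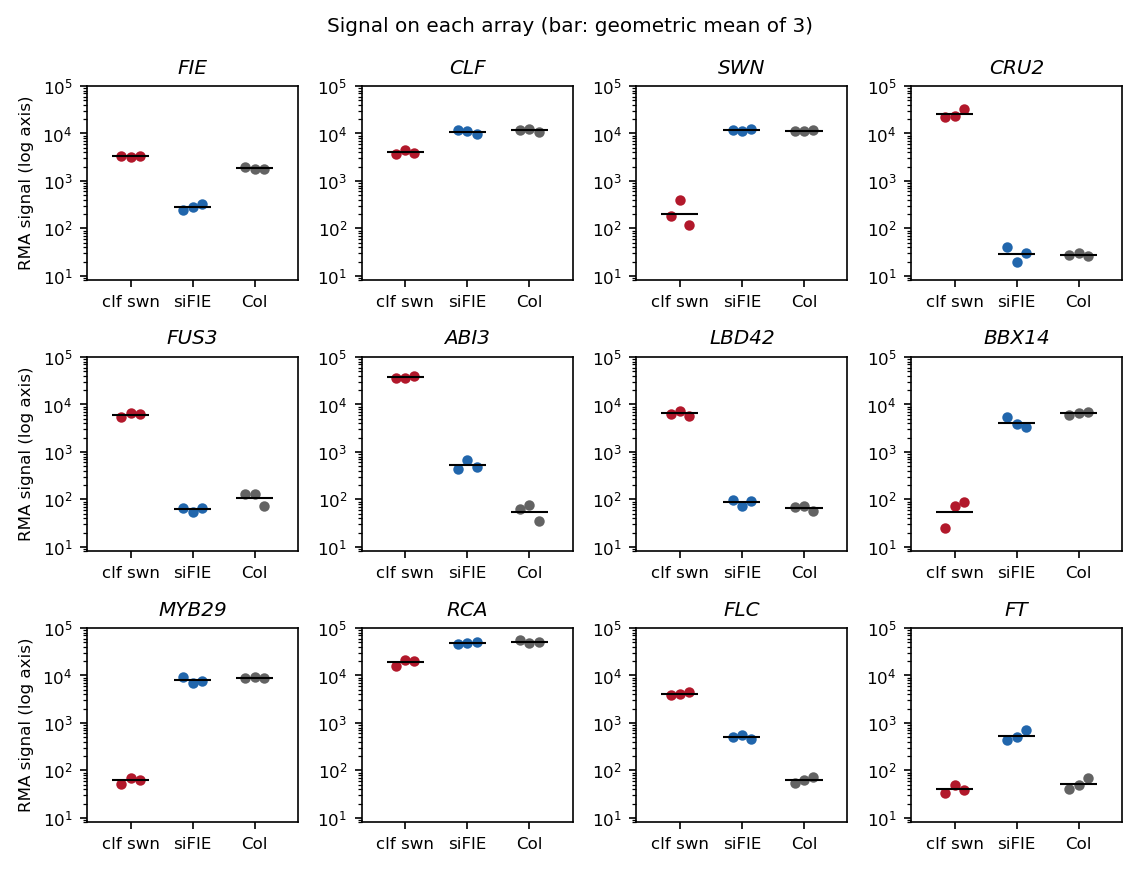
RMA signal (log axis) of 12 genes on each array, with clf swn on the left, siFIE in the middle and wildtype Col on the right of each panel. Points are single arrays and bars are geometric means of 3 arrays. SWN was low only in clf swn, FIE was lowest in siFIE, and CRU2, FUS3, ABI3 and LBD42 were far higher in clf swn than in siFIE.

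Across the genome, 2072 genes were higher in clf swn than in siFIE and 3349 were lower, 6.82% and 11.0% of all genes, so 17.9% were called in either direction. The lower genes were the larger group, but the biggest differences lay on the higher side: 104 genes were more than 64-fold higher and 22 were more than 64-fold lower. The median difference of all genes was 0.06. Arrays of the 2 mutants did not overlap for 2063 of the higher and 3310 of the lower genes. The criteria of a call leave little room for overlap, so these counts are not separate evidence for the calls. The share of all genes without overlap is not given for comparison. Without background correction 1165 genes were called higher (3.84%) and 1849 lower (6.09%), 9.93% of all genes together, and 1154 of the higher genes (55.7%) and 1844 of the lower genes (55.1%) were called again in the same direction. In whole seedlings, fewer cells of a type and less RNA per cell cannot be told apart.

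**Figure D2:**
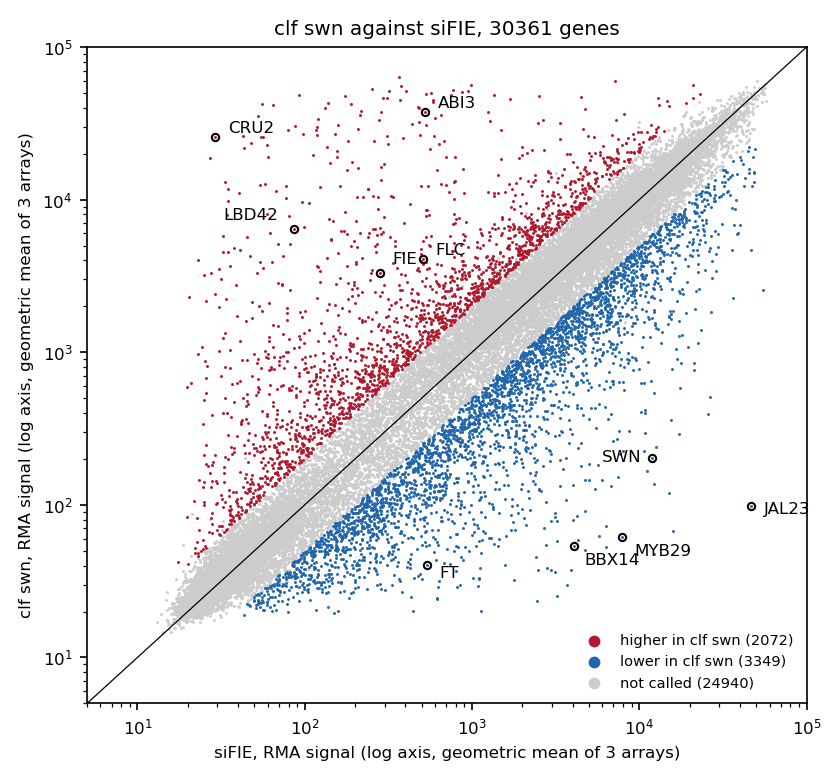
Mean RMA signal of each of 30361 genes in clf swn (vertical, log axis) against siFIE (horizontal, log axis), as geometric means of 3 arrays. Red genes were higher in clf swn (2072), blue genes were lower (3349) and grey genes were not called. The upper left holds genes that were near the floor in siFIE and bright in clf swn, such as CRU2, and the lower right holds the opposite, such as JAL23.

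The baseline told the directions apart. Among the genes higher in clf swn, the Col mean was nearer to siFIE than to clf swn for 1895 (91.5%). The 3 Col arrays overlapped the siFIE arrays for 1055 of them, lay below both mutants for 566 and lay between the mutants for 345. The median signal of the higher genes was 1775 on clf swn arrays, against 354 on siFIE arrays and 298 on Col arrays. Among the genes lower in clf swn, the Col mean was nearer to siFIE for 2680 (80.0%). The Col arrays overlapped siFIE for 1218 of these, lay above both mutants for 1047, lay between them for 609 and overlapped clf swn for 320. The median signal of the lower genes was 383 on clf swn arrays, against 1576 on siFIE arrays and 1489 on Col arrays. In both directions clf swn was the mutant that stood farther from Col for most called genes. The Col arrays took no part in the calls beyond the estimate of spread.

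**Figure D3:**
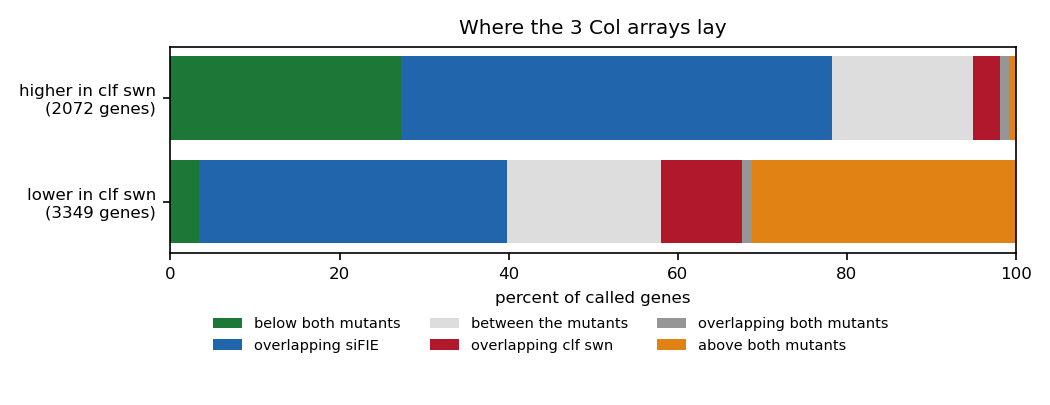
Share of the genes called higher (2072) and lower (3349) in clf swn, by where the 3 Col arrays lay relative to the arrays of the mutants. Blue, Col overlapping siFIE, was the largest class in both directions.

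Counts of list members below stand against the 6.82% higher and 11.0% lower of all genes. The seed storage proteins had the largest median difference of the 31 gene lists examined. All 9 members on the list, 3 cruciferins, 5 2S albumins (SESA genes) and the vicilin-like PAP85, were higher in clf swn, with a median difference of 7.22. CRU2 (AT1G03880), which encodes a 12S cruciferin, had 22171, 23193 and 32792 in clf swn, against 41.0, 19.9 and 30.4 in siFIE. It had the largest difference of all 30361 genes in RMA values (9.78, SE 0.25, limma adjusted p = 8.5e-09), 880-fold in RMA values and 118-fold without background correction, where AT2G05580, AT1G47540 and AT3G63040 were ahead of it (6.98, 6.97 and 6.89). Its siFIE signals overlapped those of Col (27.2, 29.6 and 26.5). CRA1 (AT5G44120) had 50065, 53181 and 48866 in clf swn, against 544, 1280 and 937 in siFIE, and Col lay lower still at 65.0, 76.8 and 74.8. The storage genes therefore did not all behave alike in siFIE: CRA1, CRU3 and SESA1 averaged 920, 1217 and 1343 there, against 72.2, 34.0 and 94.4 in Col, while CRU2 and SESA3 averaged 30.4 and 176, against 27.8 and 219 in Col. Summed over the 9 genes, the signal was 410482 to 418154 on the clf swn arrays, 2713 to 6758 on the siFIE arrays and 1122 to 1366 on the Col arrays.

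Of 16 genes of oil bodies and seed oil 9 were higher and 7 not called, with a median of 4.01. The 9 included all 4 oleosin genes, which coat the oil bodies of seeds. KCS18 (AT4G34520), the elongase also called FAE1 that makes the very long chain fatty acids of seed oil, had 26055, 24884 and 25999 in clf swn, against 59.5, 66.7 and 41.7 in siFIE (8.87, limma adjusted p = 2e-08, and 5.99 uncorrected). ATS1 (AT4G26740), a caleosin of the oil body surface, differed by 8.42 (uncorrected 6.33) and the oleosin gene OLEO1 by 7.45 (uncorrected 6.55). WRI1, the transcription factor that turns on fatty acid synthesis in seeds, had 7737, 8134 and 6706 in clf swn, against 1664, 1682 and 1675 in siFIE, a difference of 2.16. The desaturase genes FAD2 and FAD3, which act in every tissue, differed by 0.25 and 0.27 and were not called. Of the 13 late embryogenesis abundant proteins, which protect drying seeds, 11 were higher, 1 was lower and the median was 5.16. PER1, a seed peroxiredoxin placed on that list, led it at 8.13 (uncorrected 6.34), with 33656, 36538 and 30967 in clf swn, against 136, 71.9 and 177 in siFIE. The exception was the cold-induced COR15A of the chloroplast, with 834, 812 and 902 in clf swn, against 2768, 2457 and 2482 in siFIE (-1.60). Members of these lists overlap in function with the storage genes and were chosen with earlier results of these arrays known.

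The regulators of embryo identity and seed maturation were also higher, 15 of 18 with 3 not called and a median of 2.75. ABI3 (AT3G24650), a B3 transcription factor that directs storage and desiccation genes, had 35990, 36336 and 39878 in clf swn, against 440, 692 and 477 in siFIE (6.15, SE 0.28, limma adjusted p = 2.4e-07, and 5.47 uncorrected). FUS3 (AT3G26790), another B3 factor of maturation, had 5414, 6668 and 6148 in clf swn, against 66.4, 55.0 and 64.4 in siFIE (6.62, uncorrected 4.17). ABI3 was above Col in both mutants, whereas FUS3 in siFIE lay just below the Col arrays (131, 127 and 70.9). NF-YB6, the LEC1-like subunit of the NF-Y complex, differed most in the group (7.08, uncorrected 4.61), with 7801, 8795 and 7444 in clf swn, against 52.5, 70.2 and 56.5 in siFIE. LEC1 itself had 338, 489 and 319 in clf swn, against 36.7, 25.9 and 50.8 in siFIE (3.37, and 1.18 without background correction). In RMA values LEC2 was the member of the LEC group with the smallest difference, 1.48 (limma adjusted p = 9.6e-06). Without background correction LEC2 differed by 1.36, more than LEC1. LEC2 had 1098, 1120 and 982 in clf swn, 344, 384 and 422 in siFIE and 139, 138 and 126 in Col. BBM, an AP2 factor that can start embryos from seedling tissue, differed by 2.60 and ABI4, an AP2 factor of abscisic acid responses in seeds, by 5.62 (uncorrected 4.49). HSI2, a B3-type repressor of this programme, had a difference of 1.00 that did not pass the 2-fold threshold.

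Markers of seed coat, endosperm and pollen were mostly not called. Of the 12 on that list, 1 was higher, 1 was lower (8.33% each) and the median was 0.00. PHE1, a MADS gene of the endosperm, had 26.6, 30.8 and 39.4 in clf swn, against 40.7, 40.1 and 42.8 in siFIE, and the pollen factor DUO1 had 25.9, 26.6 and 23.0 in clf swn, against 25.2, 38.1 and 25.1 in siFIE, both close to the lowest signals on the arrays. The enzymes that break down seed reserves after germination differed little, with 1 of 16 higher, 1 lower (6.25% each) and a median of 0.18. Within that list the glyoxylate cycle enzyme malate synthase (MLS) was higher in clf swn at 34528, 31020 and 33833, against 7899, 7303 and 6606 in siFIE (2.19), while the peroxisomal malate dehydrogenase PMDH2 was lower at 2607, 2807 and 3347, against 13080, 11699 and 12241 in siFIE (-2.09).

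**Figure D4:**
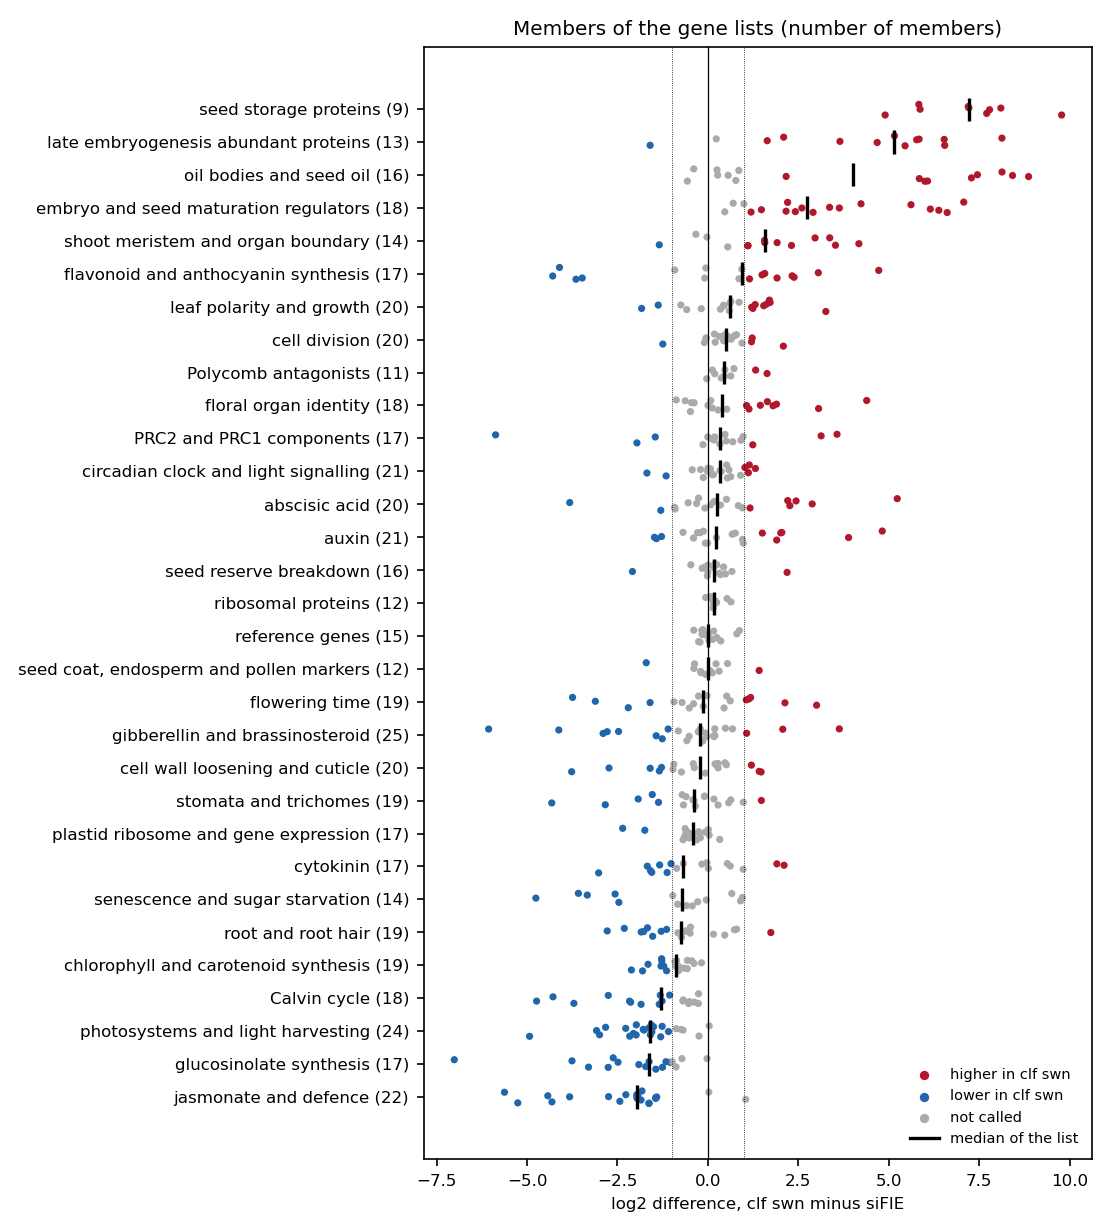
Log2 difference (clf swn minus siFIE) of every member of 31 gene lists, ordered by the list's median from high to low. Each point is 1 gene, red where higher in clf swn, blue where lower and grey where not called, and black bars are medians. Medians ran from 7.22 for seed storage proteins to -1.95 for jasmonate and defence genes, with reference genes at 0.01.

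FIE-HA binding peaks that also carry H3K27me3 were mapped in the same study by chromatin immunoprecipitation, and the peak list that goes with it names the genes whose bodies hold them. The 706 peaks at hand can be an incomplete list. Of 673 such genes on the array, 169 (25.1%) were higher in clf swn and 115 (17.1%) were lower, against 6.82% and 11.0% of all genes. Without background correction 125 (18.6%) were higher and 65 (9.66%) were lower, against 3.84% and 6.09% of all genes. The median difference was 0.14, and the range ran from -6.24 to 9.78. The gene with the most negative difference among them, BBX14 (AT1G68520, a B-box zinc finger gene), sits beside LBD42 (AT1G68510, a LATERAL ORGAN BOUNDARIES domain gene), which differed in the opposite direction, and each gene has its own peak with 1289 bases between them. LBD42 had 6443, 7222 and 5772 in clf swn, against 97.5, 71.0 and 92.4 in siFIE (6.23, SE 0.16, limma adjusted p = 9e-09, and 3.84 uncorrected). BBX14 had 24.8, 71.4 and 87.2 in clf swn, against 5320, 3808 and 3316 in siFIE (-6.24, SE 0.41, limma adjusted p = 2.5e-06, and -3.75 uncorrected). In Col the pair stood as in siFIE, at 69.3, 73.6 and 57.4 for LBD42 and 6140, 6604 and 6939 for BBX14. A further such pair was CRA1 and its neighbour FLA13 (AT5G44130, a fasciclin-like arabinogalactan protein), whose nearest peaks lay 3839 bases apart. FLA13 had 206, 127 and 119 in clf swn, against 5019, 4739 and 4482 in siFIE, a difference of -5.02 (uncorrected -3.52), while CRA1 differed by 5.87. Both pairs were picked after their values were seen.

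Stretches of the peaks in these genes are shown because the peaks lie in the bodies of genes at opposite ends of the comparison. They come from the study's peak list (build TAIR9) and run in the direction of ascending coordinates as listed. They begin at the peak's first base, except that ABI3 begins at its start codon and BBX14 at a later base of its peak. Exon borders and strands were not checked, so parts of the stretches can be non-coding. Capitals mark GAGAG or its reverse complement CTCTC, the letters of GAGA-type motifs, and AACCCTA or its reverse complement TAGGGTT, known as the telobox, searched on both strands.
CRU2, chr1:987500-987799: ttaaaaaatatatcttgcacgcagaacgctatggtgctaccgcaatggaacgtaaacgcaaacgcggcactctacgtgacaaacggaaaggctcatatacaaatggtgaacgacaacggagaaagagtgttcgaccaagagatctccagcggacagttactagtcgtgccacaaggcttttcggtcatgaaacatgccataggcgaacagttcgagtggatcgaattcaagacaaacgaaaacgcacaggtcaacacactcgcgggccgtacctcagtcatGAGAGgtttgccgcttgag
ABI3, chr3:8997911-8998118: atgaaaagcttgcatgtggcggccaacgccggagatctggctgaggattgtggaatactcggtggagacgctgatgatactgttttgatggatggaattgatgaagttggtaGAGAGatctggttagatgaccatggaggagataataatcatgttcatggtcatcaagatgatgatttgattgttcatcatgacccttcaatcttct
LBD42, chr1:25707630-25707929: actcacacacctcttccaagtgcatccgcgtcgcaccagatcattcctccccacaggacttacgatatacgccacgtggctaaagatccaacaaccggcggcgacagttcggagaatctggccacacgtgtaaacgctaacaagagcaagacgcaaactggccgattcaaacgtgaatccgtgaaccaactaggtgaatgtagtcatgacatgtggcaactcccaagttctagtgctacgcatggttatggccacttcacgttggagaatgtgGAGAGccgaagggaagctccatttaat
BBX14, chr1:25709350-25709649: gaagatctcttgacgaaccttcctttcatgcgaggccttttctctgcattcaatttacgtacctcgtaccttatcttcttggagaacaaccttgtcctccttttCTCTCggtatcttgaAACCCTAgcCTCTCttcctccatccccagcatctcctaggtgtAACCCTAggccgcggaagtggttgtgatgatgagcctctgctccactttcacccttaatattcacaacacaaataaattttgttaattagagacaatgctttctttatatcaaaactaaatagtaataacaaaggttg
CRA1, chr5:17757140-17757400: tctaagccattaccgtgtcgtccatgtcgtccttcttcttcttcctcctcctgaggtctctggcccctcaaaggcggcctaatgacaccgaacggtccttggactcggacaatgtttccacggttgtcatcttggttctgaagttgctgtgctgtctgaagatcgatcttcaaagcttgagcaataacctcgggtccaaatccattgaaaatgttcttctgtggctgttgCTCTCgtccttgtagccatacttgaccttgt
FLA13, chr5:17761240-17761539: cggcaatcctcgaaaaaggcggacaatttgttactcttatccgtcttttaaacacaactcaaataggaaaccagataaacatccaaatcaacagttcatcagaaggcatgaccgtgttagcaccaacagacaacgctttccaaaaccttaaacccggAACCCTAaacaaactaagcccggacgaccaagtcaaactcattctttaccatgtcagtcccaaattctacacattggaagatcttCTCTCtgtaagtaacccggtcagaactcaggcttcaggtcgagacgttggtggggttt
In these stretches GAGAG or CTCTC occurred 1 time in CRU2, ABI3, LBD42, CRA1 and FLA13 and 2 times in BBX14, and the telobox occurred 2 times in BBX14 and 1 time in FLA13. Of the 706 peaks, 459 (65.0%) held GAGAG or CTCTC in their first 300 bases and 149 (21.1%) held the telobox. A match describes the letters only.

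Flower genes gave a mixed picture. Of 18 floral organ identity genes 8 were higher in clf swn and 10 were not called, with a median of 0.40. The C class gene AGAMOUS (AG), a classic PRC2 target, had 7415, 7487 and 6559 in clf swn, against 5728, 7851 and 6858 in siFIE, a difference of 0.08 (95% interval -0.38 to 0.54) that was not called, with Col at 110, 136 and 77.0. The MADS genes AP1 and SHP1 were also not called, at 0.12 and 0.52. The B class genes AP3 and PI were higher in clf swn, AP3 with 12071, 11663 and 10328 against 3416, 5120 and 4064 in siFIE (1.45) and PI with 11133, 9646 and 10639 against 2649, 3879 and 3631 in siFIE (1.65). CRC (AT1G69180), a YABBY gene of carpels and nectaries, showed the widest gap, with 5882, 6402 and 6251 in clf swn, against 120, 544 and 391 in siFIE (4.39, SE 0.49, limma adjusted p = 8.7e-05, and 3.3 uncorrected), and its siFIE arrays were uneven. The gene SPL of anther and ovule formation, also called NOZZLE, differed by 3.06 (uncorrected 1.33). The ovule gene STK differed by 1.07 with all arrays, and by less than 2-fold without siFIE replicate 1 (0.99) and in every processing from the probes (0.96 and 0.98 with normexp, 0.87 uncorrected). AG and AP1 were far above Col on all arrays of both mutants.

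In the flowering time list, 5 of 19 genes were higher and 4 were lower (2 higher and 3 lower without background correction). The MADS repressor FLC (AT5G10140) had 3847, 4058 and 4381 in clf swn, against 511, 553 and 467 in siFIE (3.01, limma adjusted p = 3.2e-07, and 2.34 uncorrected), with Col at 52.9, 61.6 and 73.7. The floral inducer FT (AT1G65480) ran the opposite way, with 33.5, 50.3 and 38.6 in clf swn, against 447, 500 and 695 in siFIE (-3.74, limma adjusted p = 2.6e-06, and -1.51 uncorrected), and clf swn overlapped Col (40.2, 49.4 and 68.9). SOC1, named AGL20 on the array (AT2G45660), is a target of both and had 1081, 908 and 995 in clf swn, against 4619, 4547 and 4516 in siFIE (-2.20). FLC was thus above Col in both mutants and highest in clf swn, whereas FT was above Col only on the siFIE arrays. The FLC neighbour AT5G10150 had 396, 427 and 463 in clf swn, against 328, 401 and 370 in siFIE and was not called (0.23, limma adjusted p = 0.23). VIN3, the PHD finger partner of PRC2 at FLC during cold, had 5676, 4937 and 4300 in clf swn, against 456, 600 and 654 in siFIE (3.13, uncorrected 2.54), against 68.2, 61.8 and 45.6 in Col. The repressors TEM1 and TFL1 were lower, at -3.11 (uncorrected -1.56) and -1.60, the TFL1 call being lost without background correction (-0.98).

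Among the 17 components of PRC2 and PRC1 3 were higher (FIE, VIN3 and RING1A) and 3 were lower (SWN, CLF and MEA). FIE, SWN and CLF are the genes disabled in the 2 genotypes, so a difference in them was built into the design. The FIE difference also held a rise in clf swn, 1.81-fold above Col in RMA values. The MEA call was lost without background correction (-0.66). RING1A, a ring finger subunit of PRC1, had 5634, 6212 and 5640 in clf swn, against 2350, 2372 and 2676 in siFIE (1.24). The subunit genes MSI1, EMF2 and VRN2 were within 2-fold at 0.51, 0.19 and -0.13. EMF1 was not called (0.47), although it averaged 38543 in clf swn and 27721 in siFIE, against 9523 in Col. A list of 11 genes headed Polycomb antagonists had 2 higher and 9 not called. It is a mixed list that also holds PKL, BPC1, BPC2 and BPC6, so its count does not describe antagonists alone. ULT1, a trithorax-group SAND domain gene, had 18756, 19698 and 15051 in clf swn, against 8294, 6220 and 6914 in siFIE (1.32). Its homologue ULT2 differed by 1.64 (0.78 without background correction, not called). The demethylase genes REF6 and ELF6 were at 0.72 and 0.47 and were not called.

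Shoot meristem and organ boundary genes were mostly higher in clf swn, 10 of 14 with 1 lower and a median of 1.57. The 3 CUP-SHAPED COTYLEDON genes, NAC factors that draw organ boundaries, were higher, CUC1 by 4.18 (uncorrected 3.38), CUC2 by 3.53 (uncorrected 1.91) and CUC3 by 2.96. CUC1 had 8275, 6018 and 7110 in clf swn, against 291, 439 and 470 in siFIE. The stem cell gene WUS had 1367, 1382 and 1283 in clf swn, against 106, 138 and 150 in siFIE (3.37, limma adjusted p = 7.3e-07, and 2.19 uncorrected). All 3 WUS arrays of clf swn were above all 3 of siFIE, which in turn were above Col (67.4, 50.9 and 44.1). The class I KNOX genes STM and KNAT1 differed by 2.31 and 1.11, KNAT1 with 23646, 21739 and 21117 in clf swn, against 9178, 11694 and 10055 in siFIE. The homeobox gene ATH1 was the lower member (-1.34).

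Leaf genes were mixed, with 8 of 20 higher, 2 lower and a median of 0.62. The growth promoting factor gene GRF5 (AT3G13960) had 3874, 5950 and 4687 in clf swn, against 309, 677 and 585 in siFIE (3.26, uncorrected 2.63), and its partner AN3 differed by 1.25. The abaxial genes AFO (FILAMENTOUS FLOWER) and KAN2 were higher by 1.62 and 1.70. TCP4 and TCP3, which end leaf cell division, were lower, at -1.83 (uncorrected -1.14) and -1.37, TCP4 with 359, 613 and 696 in clf swn, against 2015, 1878 and 1830 in siFIE. Of 20 cell division genes 3 were higher (15%) and 1 was lower, among them the D-type cyclin CYCD3;2 (1.23) and the inhibitor ICK1 (-1.25). The ICK1 call, the lower one, was lost without background correction (-0.84) and with the probes corrected by normexp and quantile normalised (-0.999). Without background correction 2 genes of the list were called, both higher. The adaxial HD-ZIP genes PHB, PHV and REV were not called (0.61, 0.44 and 0.64).

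Photosynthesis genes were lower in clf swn than in siFIE. Of 24 nuclear genes of the photosystems and light harvesting, 19 were lower, the other 5 were not called and the median was -1.61. Their summed signal was 230251 to 234668 on the clf swn arrays, 626311 to 667006 on the siFIE arrays and 840998 to 877662 on the Col arrays. Of 18 Calvin cycle genes 11 were lower and 7 not called (median -1.29), and of 19 genes of chlorophyll and carotenoid synthesis 8 were lower and 11 not called (median -0.89). LHCB2.3 (AT3G27690), an antenna protein of photosystem II, had 115, 108 and 205 in clf swn, against 13939, 11592 and 11116 in siFIE (-6.48, limma adjusted p = 6.4e-08, and -4.84 uncorrected), with Col above both at 28125, 23659 and 31442. Within the small subunit family of Rubisco the genes were uneven: RBCS1A differed by -0.26, while RBCS2B and RBCS1B differed by -4.28 and -4.74 (uncorrected -2.89). Rubisco activase (RCA), among the most abundant lower transcripts, had 15706, 21469 and 20120 in clf swn, against 46410, 48321 and 49536 in siFIE (-1.34). The carbonic anhydrase gene CA1 differed by -6.97 (uncorrected -5.06) (SE 0.69), with 62.0, 499 and 55.6 in clf swn, where replicate 2 stood above the other arrays, and 16163, 14239 and 14623 in siFIE. Members of the RBCS and LHCB families are close in sequence, and probes may share transcripts. The transcription factor gene GPRI1 (GLK1), which switches on chloroplast genes, was lower with 3299, 4145 and 4580 in clf swn, against 14063, 14473 and 13164 in siFIE (-1.81).

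Plastid-encoded genes differed less, with 4 of 67 lower, 63 not called and a median of -0.36, and 2 of 17 nuclear genes of the plastid ribosome and plastid gene expression were lower (11.8%, median -0.42). None of 12 cytosolic ribosomal protein genes and none of 15 reference genes was called by limma, with medians of 0.16 and 0.01, although 2 of the 12 and 3 of the 15 had an unadjusted p under 0.05 at less than 2-fold, and the methods' t-test also called 0 of either list. Among them ACT2 differed by -0.14, and GAPC2 and UBQ10 had the widest differences at 0.80 and 0.87, GAPC2 with 28899, 6447 and 31533 on the siFIE arrays, of which replicate 2 stood apart.

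Several root markers were also lower in clf swn. Of 19 root and root hair genes 8 were lower and 1 was higher (median -0.73), and their summed signal was 26084 to 34241 in clf swn, 40419 to 60997 in siFIE and 68279 to 79132 in Col. IRT1, the iron transporter of the root surface, had 938, 928 and 1116 in clf swn, against 4579, 9840 and 7036 in siFIE (-2.78). The quiescent centre gene WOX5 was the higher one, with 2605, 2003 and 1608 in clf swn, against 804, 530 and 527 in siFIE (1.74). Of 19 stomata and trichome genes 5 were lower and 1 was higher (median -0.38), 26.3% and 5.26% of the list, and without background correction 2 were lower (10.5%, against 6.09% of all genes). The guard cell potassium channel gene KAT1 had 78.4, 80.1 and 98.4 in clf swn, against 1966, 1491 and 1669 in siFIE (-4.32, uncorrected -2.42), whereas MUTE, a factor of the stomatal precursor cell, was higher by 1.48. The part that the proportions of green, root and epidermal tissue had in the other differences was not tested.

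Defence and jasmonate genes formed the list with the largest share of lower members, 20 of 22, with the other 2 not called and a median of -1.95. LOX2 (AT3G45140), the chloroplast lipoxygenase of jasmonate synthesis, had 2062, 2818 and 2904 in clf swn, against 52791, 54203 and 58640 in siFIE (-4.43, limma adjusted p = 3.3e-08, and -4.46 without background correction). AOC2, which acts later in the same pathway, had 164, 189 and 113 in clf swn, against 10327, 5812 and 6983 in siFIE (-5.62, uncorrected -3.76). Col placed these genes in different classes. For LOX2 and AOC2 the Col arrays were at 53640, 47568 and 51409 and 12817, 14618 and 9913, overlapping siFIE. The jasmonate response genes VSP1, JAZ10 and THI2.1 averaged 12297, 1168 and 508 in clf swn and 47591, 4839 and 2749 in siFIE, against 17332, 223 and 97.8 in Col. The Col average of VSP1 thus lay between those of the mutants, while those of JAZ10 and THI2.1 lay below both. The list's median against Col was -0.95 in clf swn and 1.16 in siFIE. The salicylate marker PR1 was near the floor in both mutants, with 55.7, 58.8 and 68.2 in clf swn, against 56.8, 54.7 and 68.0 in siFIE.

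Among the genes named here, the 3 largest negative differences, of JAL23, AT4G22500 and NATA1, lay outside the photosynthesis lists. JAL23 (AT2G39330), a jacalin-related lectin, had 125, 104 and 74.6 in clf swn, against 43569, 50187 and 46250 in siFIE (-8.88, SE 0.18, limma adjusted p = 2.3e-09), 471-fold lower in RMA values and 118-fold lower without background correction. NATA1 (AT2G39030), an acetyltransferase of ornithine, had 64.9, 64.1 and 75.2 in clf swn, against 15723, 18213 and 13945 in siFIE (-7.87, uncorrected -5.86). Col lay between the mutants for both, at 16605, 15245 and 13987 for JAL23 and 2058, 2015 and 3052 for NATA1. TPS04 (AT1G61120), the geranyllinalool synthase that starts a volatile terpene, had 37.6, 40.6 and 30.6 in clf swn, against 4116, 3673 and 1993 in siFIE (-6.43, uncorrected -3.68). Its Col arrays (33.3, 49.4 and 22.6) overlapped clf swn, and only the siFIE arrays stood above them. The unnamed gene AT4G22500 differed by -8.00 (uncorrected -5.27), and the locus after it, AT4G22510, by -6.52 (uncorrected -4.12). Of 14 genes of senescence and sugar starvation 5 were lower and 9 not called, led by SAG13 with 221, 155 and 188 in clf swn, against 4702, 5310 and 5092 in siFIE (-4.76, uncorrected -3.05), against 344, 374 and 346 in Col.

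Glucosinolate synthesis, the pathway of mustard oil precursors, was lower in clf swn for 13 of 17 genes, with 4 not called (median -1.63). MYB29 (AT5G07690), a MYB activator of the methionine-derived branch, had 52.4, 68.3 and 64.0 in clf swn, against 9364, 7013 and 7500 in siFIE (-7.01, limma adjusted p = 2.6e-09, and -4.58 uncorrected), close to Col at 8661, 9287 and 8976. CYP79F1, which commits elongated methionine to the pathway, had 1787, 1189 and 974 in clf swn, against 15945, 16983 and 18891 in siFIE (-3.76). MYB34, an activator of the tryptophan-derived branch, was not called (-0.02), nor was CYP79B2 of that branch (-0.72). The breakdown enzyme TGG1 (myrosinase), among the most abundant lower transcripts, differed by -1.02 with all arrays by -0.98 without siFIE replicate 1 and by -0.78 with the probes corrected by normexp and scaled by the median.

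The flavonoid list held both directions, with 8 of 17 higher and 4 lower. The flavonol regulators MYB11, MYB12 and MYB111 were higher by 4.72 (uncorrected 3.35), 2.33 and 2.38 (uncorrected 1.74), and MYB11 had 6432, 4344 and 4379 in clf swn, against 256, 144 and 180 in siFIE. The hydroxylase genes TT7 and F3H and the flavonol synthase gene FLS1 were higher by 3.05, 1.15 and 1.50. The later anthocyanin genes were the lower ones. DFR had 358, 516 and 325 in clf swn, against 8379, 7444 and 4898 in siFIE (-4.10, uncorrected -3.46), LDOX differed by -4.29 (uncorrected -2.63) and the anthocyanin activator PAP1 (AT1G56650) by -3.47 (uncorrected -2.48). The remaining lower member was UF3GT (-3.65, uncorrected -1.78), which adds a sugar to anthocyanins. The early steps PAL1, C4H and TT4 were not called (-0.09, -0.05 and 0.94).

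Hormone genes were divided within each pathway. In the auxin list 6 of 21 were higher (28.6%) and 3 were lower (14.3%, and 1 lower without background correction). The auxin synthesis genes YUC4 and YUC1 stood out, YUC4 with 5419, 6316 and 6423 in clf swn, against 157, 254 and 244 in siFIE (4.82, uncorrected 3.62), and YUC1 higher by 3.89 (uncorrected 2.45). The auxin carriers PIN3 and PIN7 were not called (-0.40 and -0.01). Of 20 abscisic acid genes 6 were higher and 2 lower (30.0% and 10.0%): HAI3, a phosphatase induced by the hormone, had 1569, 2123 and 2417 in clf swn, against 59.8, 46.1 and 54.4 in siFIE (5.24, uncorrected 2.92), while NCED4, a carotenoid cleavage enzyme, had 71.2, 107 and 110 in clf swn, against 1107, 1744 and 1214 in siFIE (-3.82, uncorrected -2.10). The cytokinin list had 2 of 17 higher and 7 lower (11.8% and 41.2%, and 3 lower without background correction), with the activating enzyme LOG1 at -3.02 (uncorrected -1.53) and the oxidases CKX1 and CKX3 at 2.11 and 1.91 (uncorrected 1.23). Of 25 gibberellin and brassinosteroid genes 3 were higher and 8 lower (12.0% and 32.0%). The growth promoting bHLH gene HBI1 had 27.2, 46.3 and 40.7 in clf swn, against 4265, 1800 and 1989 in siFIE (-6.06, uncorrected -3.23), the synthesis gene GA3OX1 was lower, at -2.90 (uncorrected -2.09), and GA1, which catalyses the first step of gibberellin synthesis, was higher by 3.63 (1.48 without background correction).

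Of 20 genes of cell wall loosening and cuticle 3 were higher and 5 lower (15% and 25%, against 6.82% and 11.0% of all genes), with the lipid transfer gene LTP2 at 1.42 and the expansin gene EXPA11 at -3.77 (uncorrected -2.89). Clock and light signalling genes gave 4 of 21 higher and 2 lower (19.0% and 9.52%, and 2 higher and 1 lower without background correction). The clock genes CCA1, LHY and TOC1 were not called (-0.43, 0.58 and 0.37). The calls of PRR3 (1.14) and ELF4 (1.02) stood at the 2-fold threshold: without clf swn replicate 2 they were 0.996 and 0.97 (ELF4 also 0.97 uncorrected), and without clf swn replicate 3 ELF4 was 0.94.

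Differences in RMA values exceeded those without background correction for genes with a nearly silent group, as the uncorrected values show. With 3 arrays a genotype, an exact permutation test of a single gene cannot go below a two-sided p of 0.1, and the calls therefore rest on the spread that limma shares across genes.

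**Figure D5:**
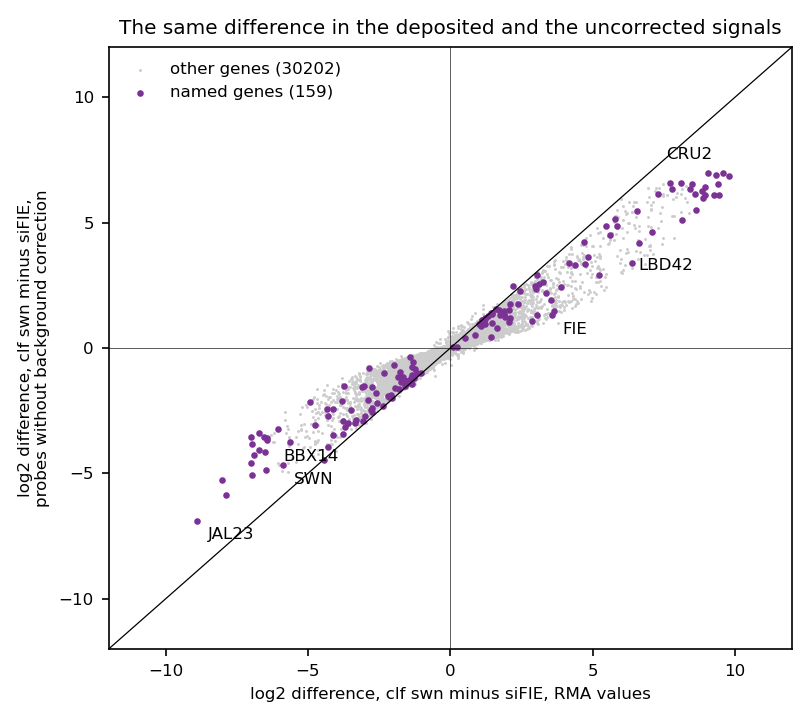
Log2 difference (clf swn minus siFIE) of each gene in probes without background correction (vertical) against RMA values (horizontal), with the line of equality. Purple points are the 159 genes chosen by the naming rule and grey points are the others. Large differences are flatter on the vertical axis, as for CRU2 (9.78 in RMA values and 6.88 without background correction).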

How the data were processed

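RNA of whole seedlings was labelled with Cy3 and hybridised to single-colour NimbleGen arrays, 1 array for each of 9 pools. The authors deposited 1 linear RMA intensity per gene and array, made with NimbleScan 2.4.31 by background correction, quantile normalisation and summary over the probes, together with the deposited intensity of each 60 base probe, which was not normalised. The median probe intensity of an array was 1213 to 2370 and at most 15 spots were saturated. The number of arrays limits the precision.

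RMA values were put on the log2 scale with no pseudocount or filter. limma 3.58.1 (R 4.3.3) was fitted to all 9 arrays with 3 group means, and clf swn minus siFIE was tested two-sided. A call needed a Benjamini-Hochberg adjusted p under 0.05 over 30361 genes and more than 2-fold, the fold and confidence levels of the study's methods. The script was tested on simulated data. The members and gene lists were chosen with earlier results of these data known. Lists were described by counts and medians only. Of 552 list entries, 540 had a locus and symbol that matched the RefSeq gene table of TAIR10.1 and were used. Genes were named by a rule: the PRC2 genes and those the study discusses, 15 per direction with the largest robust differences, up to 4 members of each list and up to 2 against its majority, and the 3 most abundant per direction. Genes outside it were named after their values were seen. The list of peaks can be incomplete. Symbols are those of RefSeq, so SOC1 appears as AGL20.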

Additional observations from a re-analysis of the deposited data

How the results depend on the processing

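No background correction gave 1165 genes higher and 1849 lower in clf swn and 65 lower FIE-HA peak genes, against 2072, 3349 and 115 in RMA values. No fold threshold gave 6332 and 6281 genes, with 14 higher leaf polarity and growth genes and 18 lower chlorophyll and carotenoid genes. More than 4-fold gave 704 and 957 genes. At that threshold 2 floral, 5 meristem, 1 leaf and 4 flavonoid genes were higher, 2 root, 7 photosystem, 6 Calvin cycle, 1 chlorophyll, 6 glucosinolate, 5 gibberellin and brassinosteroid and 8 jasmonate and defence genes were lower, and 92 FIE-HA peak genes were higher and 38 lower. Leaving out 1 array at a time gave 2063 to 2144 genes higher and 3204 to 3424 lower. Of 159 named genes none changed direction under the alternatives run except AG, which was not called: its difference was -0.039 without siFIE replicate 1 and ran from -0.039 to 0.19 over the settings that left out 1 array. Part of the 159 were chosen for calls that held without background correction, in every probe and with no overlap of arrays. Others were chosen for the smallest p of a list, so their stability was partly fixed by the choice. Without background correction 13 of the 159 fell short of the call, while over all genes 55.7% of the higher and 55.1% of the lower calls were kept. Without siFIE replicate 1 FTM1 (0.95), TGG1 and STK fell short.

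The replicate numbers are shared by clf swn and siFIE in the titles. Same-numbered arrays deviated together only weakly (r = 0.17, -0.02 and 0.08), and arrays of different number gave r from -0.15 to 0.08. These values cannot settle whether same-numbered arrays were handled together. With the replicate number as a block 2071 genes were higher and 3319 lower, and no named gene changed its call. Replicate numbers and pools of plants are the only replication, so p-values measure the spread between pools. Dim genes near the floor of the arrays have fold changes that depend on the background correction.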

Other observations

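Gene families were grouped by the prefix of their symbol and chosen after the data were seen among families of at least 40 genes on the array. They overlap in part with the lists above, which hold several WRKY and CYP genes. Of 44 UMAMIT amino acid and metabolite transporters 22 were lower in clf swn and 5 were higher. Of 40 CRK genes, cysteine-rich receptor-like kinases, 21 were lower in clf swn. Of 54 RLP receptor-like protein genes 18 were lower, and of 67 WRKY transcription factor genes 22 were lower and 3 higher. Of 238 genes with the prefix CYP, used for cytochrome P450 genes, 72 were lower and 25 higher. The prefix alone defined this group, so genes of other families can be among them. These counts stand beside 6.82% higher and 11.0% lower of all genes.

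Most called genes had no neighbour called in the same direction, but the share that did was above the share of all genes. Of 30195 pairs of neighbouring loci, 1252 had both genes called, and 888 of these (70.9%) ran in the same direction, 260 with both higher and 628 with both lower in clf swn. A gene called higher was followed by a gene called higher in 12.6% of cases, against 6.86% of all genes on the nuclear chromosomes, and a gene called lower by a gene called lower in 18.8%, against 11.1%. Tandem copies that share probe sequence can enter these counts, and their part was not tested. Calls were then kept only if made with and without background correction, with no overlap of arrays and with every probe in the same direction. Of the neighbouring pairs with both genes called in this way, 140 of 488 ran in opposite directions. Among them 8 pairs had an FIE-HA peak in each gene body, and 3 of these ran in opposite directions. The 3 were LBD42 with BBX14, CRA1 with FLA13, and AT3G48510 (4.49) with CYP94B3 (-3.53), a cytochrome P450 that inactivates jasmonoyl-isoleucine. So few pairs cannot set genes with peaks apart from the other pairs.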
